A study of Mus musculus with 7 samples.

Results

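miR-129, miR-137, miR-138 and miR-153 are 4 families of microRNAs that are enriched in neurons, and their levels were read here in 7 small RNA libraries made from mouse spinal cells sorted at 2 embryonic stages. The rows were chosen by name, as the rows of these families: mmu-miR-129-5p, mmu-miR-129-1-3p, mmu-miR-129-2-3p, mmu-miR-137-3p, mmu-miR-138-5p, mmu-miR-138-1-3p, mmu-miR-138-2-3p and mmu-miR-153-3p. All 8 rows were present in both deposited tables, each of which lists 1908 mature miRNAs. The study compared miRNA levels between classes of embryonic spinal neurons. At E10.5, GFP-positive motoneurons of Hb9::gfp embryos (2 libraries) were set against the GFP-negative spinal cells of the same genotype (2 libraries). At E12.5, GFP-positive motoneurons of Hb9::gfp embryos, tdTomato-positive V2a interneurons of Chx10::cre;Rosa26::LSL::tdTomato embryos and tdTomato-positive V3 interneurons of Sim1::cre;Rosa26::LSL::tdTomato embryos gave 1 library each. A population is thus what the Hb9, Chx10 or Sim1 driver labelled and the sorter kept, the GFP-negative cells are a mixture of all other cells of the dissected cord, and the number of embryos behind a library is not given in the sources used here.

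A miRNA is cut from a hairpin precursor, and 1 arm of the hairpin, the guide strand, is usually kept by an Argonaute protein while the other arm is mostly degraded. The guide pairs with messenger RNAs through its seed, the bases near its 5′ end, and lowers their translation or stability. miR-137 is known for its part in neural progenitor differentiation and dendrite growth and lies at a human schizophrenia risk locus; miR-138 is known in rat hippocampal neurons for limiting dendritic spine size; miR-129-5p is known for a part in the synaptic downscaling of rat hippocampal neurons; miR-153 is known for targeting the SNARE protein gene Snap25, shown in zebrafish.

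The mature sequences are shown because the families are told apart by their seeds and because some rows share reads through sequence. They are the RefSeq entries for GRCm38.p6, written 5′ to 3′, with the seed (bases 2 to 8) in capitals, and 7 of the 8 rows had an entry. The 2 arms of miR-129b are given after the others since they lie on the opposite strand of the Mir129-2 hairpin.
miR-129-5p: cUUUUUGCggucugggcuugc
miR-129-2-3p: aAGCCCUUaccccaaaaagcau
miR-137-3p: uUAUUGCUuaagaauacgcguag
miR-138-5p: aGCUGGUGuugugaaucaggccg
miR-138-1-3p: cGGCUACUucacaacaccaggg
miR-138-2-3p: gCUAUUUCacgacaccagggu
miR-153-3p: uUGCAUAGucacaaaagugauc
miR-129b-3p: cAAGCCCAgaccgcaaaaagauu
miR-129b-5p: gCUUUUUGggguaagggcuucc

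The 7 seeds were all different, and no other mature entry held any of them, so each guide stands alone in its seed group among these entries. miR-129-1-3p had no entry and was left out of this comparison. The unannotated 3′ part of the Mir129-1 hairpin holds AGCCCUU, the seed of miR-129-2-3p. The 2 miR-129 passenger arms may therefore share a seed, which was not tested. miR-129-5p and miR-138-5p are each cut, with identical sequence, from 2 hairpins, and a read of either cannot be assigned to 1 locus. On GRCm38, Mir129-1 lies at chr6:29022619-29022691 (plus strand) in an exon of the lincRNA Gm3294, and Mir129-2 at chr2:94241364-94241453 (minus strand) in an intron of Mir670hg. Mir138-1 lies at chr9:122682876-122682974 (plus strand) in an exon of the pseudogene Gm47135, and Mir138-2 at chr8:94324311-94324381 (plus strand) in an exon of the lincRNA C78859. Mir137, at chr3:118433857-118433929 (plus strand), lies in an exon of the transcript Gm26871. Mir153, at chr12:117250817-117250885 (plus strand), lies in an intron of Ptprn2, which encodes a dense-core vesicle protein.

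The hairpins of the miR-129 and miR-138 families are shown with their annotated arms in capitals, because the arms that name these rows differ between hairpins that share a guide. RefSeq annotates the 5p arm of Mir129-1 and both arms of the other 4.
Mir129-1: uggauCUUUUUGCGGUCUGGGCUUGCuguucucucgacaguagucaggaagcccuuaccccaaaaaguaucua
Mir129-2: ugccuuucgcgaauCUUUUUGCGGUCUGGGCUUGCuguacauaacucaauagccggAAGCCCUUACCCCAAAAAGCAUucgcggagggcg
Mir129b: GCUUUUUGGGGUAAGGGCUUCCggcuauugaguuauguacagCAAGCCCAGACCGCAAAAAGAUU
Mir138-1: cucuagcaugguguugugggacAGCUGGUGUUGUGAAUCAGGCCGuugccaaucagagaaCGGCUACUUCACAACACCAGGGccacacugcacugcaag
Mir138-2: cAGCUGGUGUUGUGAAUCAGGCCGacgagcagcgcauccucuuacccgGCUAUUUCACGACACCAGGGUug

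miR-129b-3p is complementary to miR-129-5p over an unbroken run of 20 of its 21 bases, and miR-129b-5p to miR-129-2-3p over 20 of 22. Whether reads were counted by strand is not stated. At E10.5 the rows of Mir129-2 and of its antisense partner Mir129b share bundles of reads, so their reads cannot be told apart. At E12.5 the miR-129b rows were at or near 0 in all 3 libraries, and how reads were divided there is not given. The 2 passenger arms of miR-138 share no run longer than 9 bases, so their rows can be separated by sequence.

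The E10.5 libraries held 493235 to 802744 reads, and the E12.5 libraries 3603584 to 4605442, as inferred from the smallest step between values. Where a row is at 0, as many as 3 reads could have been missed: 3.74 to 6.08 RPM (reads scaled to a fixed library total) at E10.5 and 0.667 to 0.844 TPM (the same after division by length) at E12.5. These floors and all counting intervals below cover counting error only. miR-218-5p, the motoneuron miRNA that the study is about, ranked 1 in both E10.5 motoneuron libraries, and its log2 fold change over GFP-negative cells was 4.76 (limma adjusted p 4.24e-06). The tables hold no messenger RNAs, so the driver genes of the sorts could not be read. Of miRNA lists marking other cells, the 10 mesenchymal and smooth muscle miRNAs summed to 1571 and 424 RPM in E10.5 motoneurons, against 81413 and 94290 RPM in GFP-negative cells. The 4 skeletal muscle miRNAs summed to 355 and 130 RPM in motoneurons, against 4192 and 3796 RPM in GFP-negative cells. The 3 sensory neuron miRNAs summed to 1971 and 2325 RPM in motoneurons, against 9171 and 9535 RPM in GFP-negative cells. The sum of the 3 oligodendrocyte lineage miRNAs went the other way, with 19803 and 17712 RPM in motoneurons, against 9223 and 7948 RPM in GFP-negative cells. Nearly all of it was miR-219a-2-3p, at 19596 and 17569 RPM in motoneurons. miR-219a-5p was also higher in motoneurons, whereas miR-338-3p was at 0 RPM in both motoneuron libraries, against 0 and 3.71 RPM in GFP-negative cells. The blood, endothelial and epithelial lists summed to at most 977 RPM in any E10.5 library, with only 4 of the 7 blood miRNAs found under their listed names.

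At E10.5, miR-153-3p was called higher in motoneurons, and miR-137-3p, miR-129-5p and miR-138-5p did not pass the test. A row was tested if it had at least 15.2 RPM in at least 2 libraries. miR-153-3p reached this only with a motoneuron value, so its call is a description. Levels were low throughout: no guide reached 50 RPM in a library, and the number of reads behind a value ran from 5 to 35. miR-153-3p, whose known target Snap25 serves vesicle release, had 37.37 and 38.52 RPM in motoneurons, against 16.72 and 11.14 RPM in GFP-negative cells. Both motoneuron libraries lay above both GFP-negative libraries. The means were 37.9 ± 0.813 RPM in motoneurons and 13.9 ± 3.95 RPM in GFP-negative cells (SD, n = 2 each). The log2 fold change on the log2(RPM + 1) scale was 1.41 (SE 0.40, 95% interval 0.45 to 2.37, limma adjusted p = 0.0292). This scale understates the change of low miRNAs.

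The call for miR-153-3p rested on all 4 libraries. Leaving out any 1 of them left the log2 fold change between 1.14 and 1.68 but ended the call, with limma adjusted p-values of 0.0753 to 0.176. Testing every row above 0 also ended it (limma adjusted p = 0.0848). Under the other 11 alternatives, which include all the rescalings of the libraries, the call stood, with log2 fold changes of 1.01 to 2.10 and limma adjusted p-values of 0.00972 to 0.0415. With the totals taken without the mesenchymal and muscle miRNAs, the log2 fold change was 1.28 (limma adjusted p = 0.0415). In bulk samples such as these, fewer cells of a type and less RNA per cell cannot be told apart, and the part of other cell types in the GFP-negative values was not tested beyond that rescaling. The labels do not state whether replicates are separate litters or separate sorts, so a p-value here measures only the spread among the libraries sequenced, and that spread may be technical.

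miR-137-3p, a regulator of neuronal differentiation, had 32.39 and 26.36 RPM in motoneurons, against 18.01 and 20.42 RPM in GFP-negative cells. The groups did not overlap here either, but the values rest on 26, 13, 14 and 11 reads. The means were 29.4 ± 4.26 RPM in motoneurons and 19.2 ± 1.70 RPM in GFP-negative cells (SD, n = 2 each). The log2 fold change of 0.58 had a 95% interval of -0.33 to 1.49 and did not pass the test (limma adjusted p = 0.258).

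miR-129-5p had 43.60 and 29.06 RPM in motoneurons, against 33.44 and 31.56 RPM in GFP-negative cells. The groups overlapped, with the GFP-negative libraries lying between the motoneuron libraries. The means were 36.3 ± 10.3 RPM in motoneurons and 32.5 ± 1.33 RPM in GFP-negative cells (SD, n = 2 each), and the log2 fold change of 0.13 (95% interval -0.78 to 1.03) did not pass the test (limma adjusted p = 0.807). Its sign depended on the processing: with 1 library left out the log2 value ran from -0.16, without the first motoneuron library, to 0.41, without the second. Summed with miR-129b-3p, with which it shares a bundle of reads at E10.5, the level was 57.3 and 42.58 RPM in motoneurons, against 43.73 and 46.41 RPM in GFP-negative cells, and the groups still overlapped.

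miR-138-5p, the spine-size regulator, was the lowest of the guides in the motoneuron libraries, with 18.69 and 10.14 RPM in motoneurons, against 12.86 and 18.57 RPM in GFP-negative cells. The groups overlapped, and the log2 fold change of -0.15 (95% interval -1.30 to 0.99) did not pass the test (limma adjusted p = 0.814). Its sign turned under 4 of the rescalings and without the second motoneuron library, where it ran from 0.063 to 0.59. At 5 to 15 reads a library no difference was detectable at this depth, and the interval runs from more than 2-fold lower to nearly 2-fold higher.

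**Figure D1:**
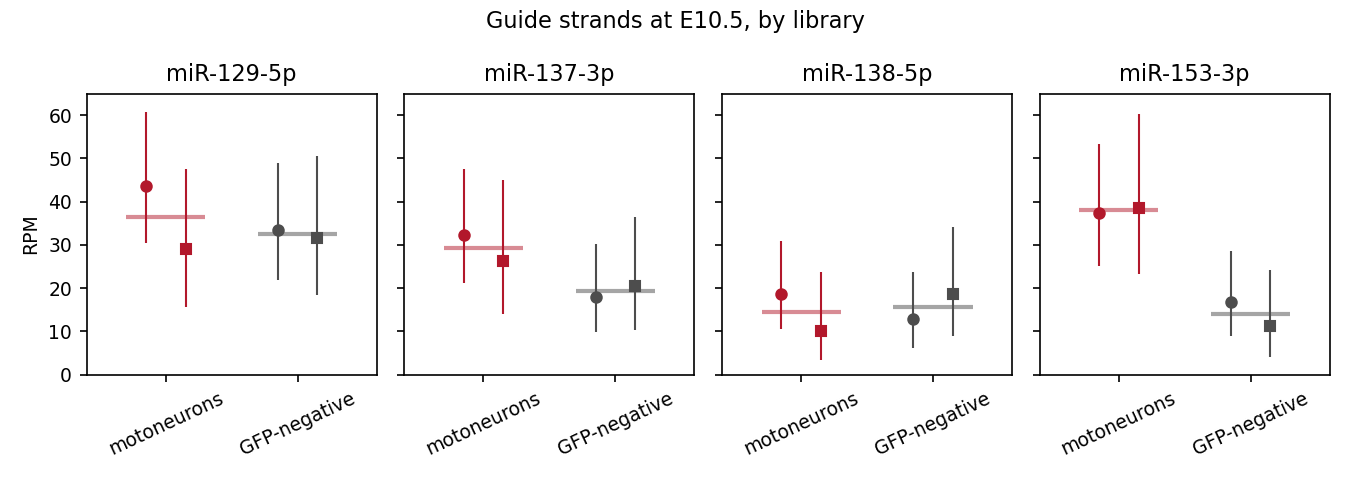
Level of each guide strand in RPM (vertical axis) in the E10.5 motoneuron libraries (red) and GFP-negative libraries (grey); circles are replicate 1, squares replicate 2, thin lines 95% Poisson counting intervals and thick lines group means. miR-153-3p lies at 37.37 and 38.52 RPM in motoneurons, against 16.72 and 11.14 RPM in GFP-negative cells, and miR-137-3p is the other guide whose groups do not overlap.

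The passenger arms were near the detection limit at E10.5 and were not tested. miR-129-1-3p was at 2.49 and 0 RPM in motoneurons and at 0 RPM in both GFP-negative libraries. miR-129-2-3p was at 0 and 1.01 RPM in motoneurons, against 1.29 and 0.93 RPM in GFP-negative cells. These miR-129-2-3p values equal those of miR-129b-5p in every E10.5 library, so the same reads were split evenly between the 2 rows. miR-138-1-3p was at 1.25 and 4.05 RPM in motoneurons, against 0 and 3.71 RPM in GFP-negative cells, and miR-138-2-3p was at 0 RPM in both motoneuron libraries, against 1.29 and 1.86 RPM in GFP-negative cells. Every one of these values lies below the level of 3 reads in its library, so no order can be read from them.

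Of the 8 rows, 4 passed the filter on low values, which asked for 15.2 RPM in at least 2 libraries. 1 of these 4 was called higher and 0 lower, with 1 row at an unadjusted p under 0.05. The row called, miR-153-3p, had 16.72 and 11.14 RPM in GFP-negative cells, so it needed a motoneuron value to pass the filter. These counts are therefore a description. Over all 492 miRNAs tested, 11.6% were called higher and 30.7% lower, 42.3% in either direction, and 52.6% had an unadjusted p under 0.05. The groups did not overlap for 2 of the 4 guides, both higher in motoneurons, against 25% of all miRNAs tested that were higher without overlap and 48.6% that were lower without overlap. The median log2 fold change of the 4 guides was 0.36, against -0.34 over all tested. That overall median depended on the scaling, at -0.07 with median-of-ratios factors, where 85 miRNAs were called higher and 118 lower, against 57 and 151 as deposited. All 4 guides lay above the overall median under each of the scalings tried. Most of these scalings move the guides and the median nearly together, so they could hardly change that order. Without the first GFP-negative library, miR-138-5p was at -0.402, against an overall median of -0.398.

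**Figure D2:**
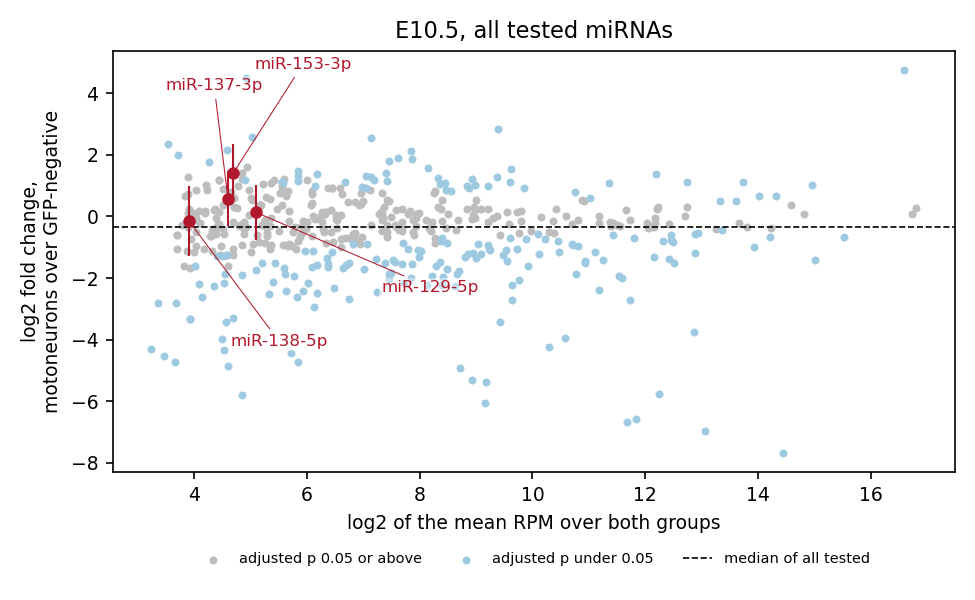
Log2 fold change of motoneurons over GFP-negative cells (vertical axis) against the log2 of the mean RPM over both groups (horizontal axis) for the 492 miRNAs tested at E10.5. Red points with 95% intervals are the 4 guides, blue points have a limma adjusted p under 0.05, and the dashed line is the median of -0.34; all 4 guides sit in the low part of the abundance range, and the interval of miR-153-3p alone among them stays above 0.

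At E12.5, miR-129-5p was the leading guide of the set in every population and stood highest in motoneurons, 7.48 times its V2a level and 3.92 times its V3 level. miR-138-5p and miR-137-3p were also highest in motoneurons, by smaller factors, whereas miR-153-3p was not: its highest value was in V3. Each population had 1 library, so no test was possible, and the intervals below are exact counting intervals on reads.

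miR-129-5p was at 575 TPM in motoneurons (95% interval 550 to 601, 1950 reads), 76.9 TPM in V2a (68.8 to 85.7, 330 reads) and 147 TPM in V3 (135 to 159, 582 reads). The 3 intervals are separate, which orders the populations as motoneurons, V3, V2a at this depth. The ratio of motoneurons to V2a was 7.48 (95% interval 6.65 to 8.43), that of motoneurons to V3 was 3.92 (3.57 to 4.31), and that of V2a to V3 was 0.525 (0.457 to 0.601). Within its library, miR-129-5p was the miRNA of rank 76 in motoneurons, 207 in V2a and 139 in V3.

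The miR-129 passenger arms had the same top population. Their 2 rows share reads at E12.5, since each holds fractions of reads and their sum is whole, so they are given as a sum: 20.8 TPM in motoneurons (74 reads), 0.667 TPM in V2a (3 reads) and 4.09 TPM in V3 (17 reads). The ratio of motoneurons to V2a was 31.2 (95% interval 10.3 to 155), and that of motoneurons to V3 was 5.09 (2.98 to 9.21). The ratio of V2a to V3 was 0.163 (0.0307 to 0.564). As deposited, miR-129-1-3p was at 7.48 TPM in motoneurons, 0.000135 TPM in V2a and 3.89 TPM in V3, and miR-129-2-3p at 13.3, 0.667 and 0.197 TPM in the same order of populations. The rows of miR-129b were at or near 0 in all 3 libraries.

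miR-138-5p was at 34.7 TPM in motoneurons (129 reads), 9.79 TPM in V2a (46 reads) and 11.7 TPM in V3 (51 reads). The ratio of motoneurons to V2a was 3.55 (95% interval 2.52 to 5.08) and that of motoneurons to V3 was 2.96 (2.13 to 4.18). V2a and V3 did not differ beyond counting error, with a ratio of 0.834 (0.548 to 1.27). Its passenger miR-138-2-3p was at 3.83 TPM in motoneurons (13 reads), 0.932 TPM in V2a (4 reads) and 0.504 TPM in V3 (2 reads). That gives a ratio of 4.11 (1.27 to 17.3) for motoneurons to V2a and 7.61 (1.72 to 69.4) for motoneurons to V3. miR-138-1-3p had 2 reads in motoneurons (0.563 TPM) and 0 in V2a and V3, all under the level of 3 reads.

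miR-137-3p was at 86.1 TPM in motoneurons (320 reads), 46.6 TPM in V2a (219 reads) and 35.9 TPM in V3 (156 reads). The ratio of motoneurons to V2a was 1.85 (95% interval 1.55 to 2.21) and that of motoneurons to V3 was 2.40 (1.98 to 2.93). Both shrank with totals without the 5 most abundant miRNAs, the log2 ratio to V2a being 0.87 as reported and 0.24 under that scaling. The V2a level was 1.30 times the V3 level (1.05 to 1.61), an order that turned when the libraries were rescaled: the log2 ratio was 0.37 as deposited and -0.11 with median-of-ratios factors.

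miR-153-3p was at 5.91 TPM in motoneurons (21 reads), 3.78 TPM in V2a (17 reads) and 8.90 TPM in V3 (37 reads). Motoneurons did not differ beyond counting error from V2a (ratio 1.56, 95% interval 0.785 to 3.15) or from V3 (ratio 0.664, 0.369 to 1.16). V2a lay below V3, with a ratio of 0.425 (0.224 to 0.774). The motoneuron level above V2a was lost when totals were taken without the 5 most abundant miRNAs, where the log2 ratio was -0.0018; under the same scaling the log2 ratio to V3 was -1.24, against -0.52 as reported, which is past 2-fold lower.

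**Figure D3:**
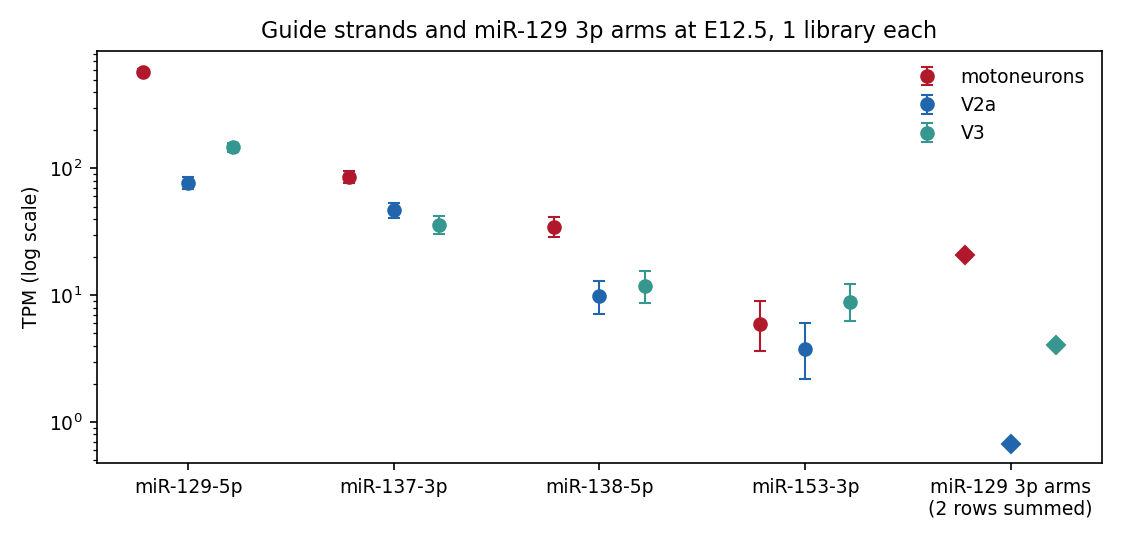
TPM on a log scale (vertical axis) of the 4 guide strands and of the summed miR-129 passenger rows in the E12.5 motoneuron (red), V2a (blue) and V3 (green) libraries; bars on the circles are 95% Poisson counting intervals, and diamonds carry none. miR-129-5p is at 575 TPM in motoneurons, 76.9 TPM in V2a and 147 TPM in V3, and miR-153-3p is the guide that lies highest in V3.

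Of the 8 rows, 6 had a mean of at least 2 TPM over the 3 libraries and were set against all 822 miRNAs with such a mean. With a motoneuron value as low as its V2a value, neither miR-129 passenger row would have reached this mean, and the same holds for miR-129-2-3p with its V3 value, so those differences were needed to enter and the counts are a description. On TPM + 1, 4 of the 6 were at least 2-fold higher in motoneurons than in V2a, against 14.4% of all considered, and 0 were at least 2-fold lower, against 24.3%. Motoneurons were at least 2-fold above V3 for 4 of the 6, against 26.8% of all considered, and at least 2-fold below V3 for 0, against 14.4%. V2a was at least 2-fold above V3 for 0 of the 6, against 28.8%, and at least 2-fold below V3 for 2 (miR-129-1-3p and miR-153-3p), against 9.25%. With the miR-129 passenger rows counted as 1, 3 rows were higher in motoneurons than in V2a. Totals without the 5 most abundant miRNAs lowered the motoneuron ratios: the log2 ratios to V2a became 2.24 for miR-129-5p, 1.11 for miR-138-5p and 0.24 for miR-137-3p, and the log2 ratios to V3 became 1.13 for miR-129-5p, 0.69 for miR-138-5p and 0.42 for miR-137-3p. The count at least 2-fold above V3 was then 2, and the median log2 ratio of all considered was -0.83 to V2a and -0.53 to V3.

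Among the 822 motoneuron to V2a ratios, counted from the highest, the guides held position 13 (miR-129-5p), 48 (miR-138-5p), 135 (miR-137-3p) and 201 (miR-153-3p). Against V3 the positions were 76 for miR-129-5p, 133 for miR-138-5p, 175 for miR-137-3p and 614 for miR-153-3p. The median log2 ratio over all considered was -0.23 for motoneurons to V2a and 0.23 for motoneurons to V3. Of the lists marking other cells, the mesenchymal and smooth muscle miRNAs summed to 199 TPM in motoneurons, 249 TPM in V2a and 310 TPM in V3. The endothelial miRNAs summed to 177 TPM in motoneurons, 405 TPM in V2a and 174 TPM in V3, and the skeletal muscle miRNAs to 126 TPM in motoneurons, 221 TPM in V2a and 63.0 TPM in V3. The oligodendrocyte lineage list had the largest of these sums, at 5540 TPM in motoneurons, 6091 TPM in V2a and 3725 TPM in V3. Nearly all of it was miR-219a-2-3p, at 5519 TPM in motoneurons, 6080 TPM in V2a and 3708 TPM in V3. The sensory neuron list summed to 108 TPM in motoneurons, 181 TPM in V2a and 193 TPM in V3. The epithelial list and the 4 of 7 blood miRNAs found under their listed names summed to at most 19.5 TPM in any library. The blood sum leaves out miR-486-5p, at 110 TPM in motoneurons, 33.9 TPM in V2a and 6.17 TPM in V3, values equal to those of miR-3107-5p. The part of all these miRNAs in the ratios was not tested.

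**Figure D4:**
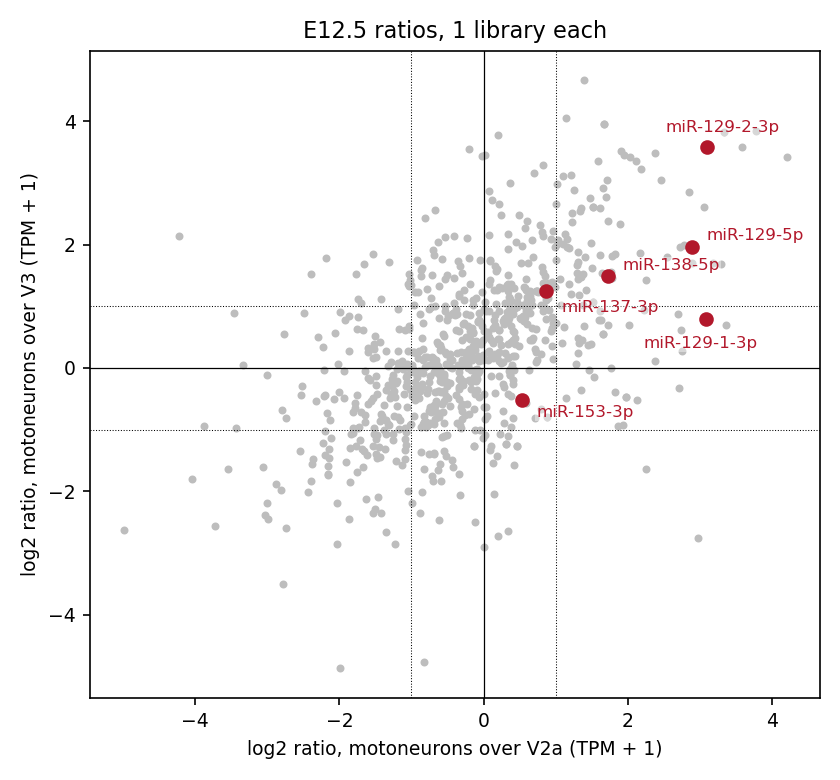
Log2 ratio of motoneurons to V3 (vertical axis) against log2 ratio of motoneurons to V2a (horizontal axis), both on TPM + 1, for the 822 miRNAs considered at E12.5; dotted lines mark 2-fold. The 6 rows (red) include 3 that pass 2-fold on both axes (miR-129-2-3p, miR-129-5p and miR-138-5p), and miR-153-3p lies above 0 against V2a and below 0 against V3; both axes share the motoneuron library, so the diagonal trend of the grey points is no result.

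The order of the guides differed between the stages. Per 22 nt of mature length, the E10.5 motoneuron means were 38.1 RPM for miR-129-5p, 37.9 RPM for miR-153-3p, 28.1 RPM for miR-137-3p and 13.8 RPM for miR-138-5p. The E12.5 motoneuron levels were 575 TPM for miR-129-5p, 86.1 TPM for miR-137-3p, 34.7 TPM for miR-138-5p and 5.91 TPM for miR-153-3p. miR-153-3p thus stood level with the miR-129-5p row in E10.5 motoneurons and last of the guides in E12.5 motoneurons. Reads shared with miR-129b-3p bear on this at E10.5: summed with it, and not divided by length, miR-129-5p was at 57.3 and 42.58 RPM in motoneurons. At E12.5 miR-129b-3p was at 0 TPM in motoneurons, so the miR-129-5p row and its ranks may hold unlike shares of reads at the 2 stages. The tables were scaled separately and each stage was its own table, so stage and table cannot be told apart, and no fold across them is given. By rank within a library, miR-129-5p was at 332 and 372 in the E10.5 motoneuron libraries and at 76 at E12.5, whereas miR-153-3p was at 344 and 343 at E10.5 and at 526 at E12.5.

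The share of reads from the guide arm was read for each family from both arms of its hairpins, with exact binomial intervals. For miR-129 it lay between 94.4% and 100% at E10.5 and was 96.3% in motoneurons, 99.1% in V2a and 97.2% in V3 at E12.5. For miR-138 it was 89.6% in motoneurons, 92% in V2a and 96.2% in V3 at E12.5, with overlapping intervals. For miR-137 it was 88.9% in motoneurons (95% interval 85.2 to 91.9), 85.5% in V2a (80.6 to 89.6) and 73.2% in V3 (66.8 to 79.1), so the V3 library held relatively more of the other arm.

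The same arm, miR-137-5p, was uneven among the E10.5 libraries. It had 4.98 and 20.27 RPM in motoneurons, against 1.29 and 5.57 RPM in GFP-negative cells, and the guide share in the second motoneuron library was 56.5% (34.5 to 76.8). In these values the replicate motoneuron libraries differed more from each other than the first did from the GFP-negative ones. The values rest on 4 and 10 reads in motoneurons, against 1 and 3 reads in GFP-negative cells. The counting intervals of the 2 motoneuron libraries overlapped, at 1.36 to 12.8 and 9.72 to 37.3 RPM, so no order is read from these values. For miR-153 the guide share was 95% to 100% in 6 libraries, and in V3 it was 67.3% (53.3 to 79.3), where miR-153-5p was at 4.04 TPM and was listed at 0 in motoneurons and V2a. The miR-153-5p value in V3 does not correspond to a whole number of reads and was rounded for that share.

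**Figure D5:**
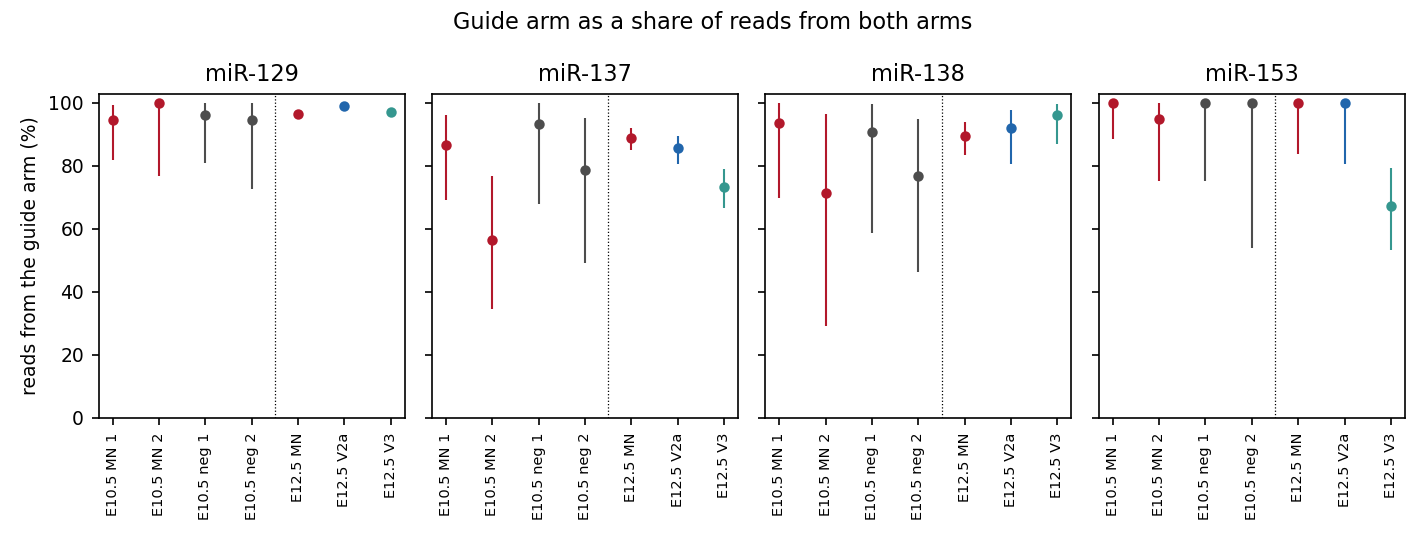
Share of reads from the guide arm in percent (vertical axis) for each family in the 4 E10.5 and 3 E12.5 libraries (MN, motoneurons; neg, GFP-negative; the dotted line separates the tables); bars are 95% exact binomial intervals. The V3 library lies lowest of the E12.5 libraries for miR-137 (73.2%) and miR-153 (67.3%), and the E10.5 intervals are wide because they rest on 6 to 37 reads.

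A list of 20 other neuron-enriched miRNAs gave the setting for these families. The list was drawn up with earlier results of these data known and holds miR-218-5p, so its counts are a description. At E10.5, 16 of them were tested, of which 8 were called higher in motoneurons, 1 lower (miR-382-5p) and 7 not called, with a median log2 fold change of 0.54. Over all 492 miRNAs tested, 11.6% were called higher and 30.7% lower. miR-7a-5p and miR-7b-5p, both called higher, share a bundle of reads. miR-124-3p, a neuron-wide miRNA that promotes neuronal differentiation, had 444.72 and 306.14 RPM in motoneurons, against 95.18 and 74.26 RPM in GFP-negative cells (log2 fold change 2.12, limma adjusted p = 0.00181). At E12.5, 19 were considered, and 6 were at least 2-fold higher in motoneurons than in V2a, with 1 lower and a median log2 ratio of 0.52. Over all considered, 14.4% were higher and 24.3% lower in that comparison. Against V3, 10 were higher in motoneurons and 2 lower, with a median of 1.30, where 26.8% of all considered were higher and 14.4% lower. miR-124-3p itself was at 157 TPM in motoneurons, 147 TPM in V2a and 57.9 TPM in V3, a motoneuron to V2a log2 ratio of 0.10, against 2.89 for miR-129-5p.

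The miRNAs whose profile over the 7 libraries was most like each guide were found by Euclidean distance on log2 values centred within each table, among 206 miRNAs with a mean of at least 50 in both tables. For miR-129-5p these were miR-1249-3p (distance 1.15), miR-667-3p (1.28) and miR-125b-5p (1.30), against a median distance of 2.43. For miR-138-5p they were miR-1249-3p (0.580), miR-431-3p (0.674) and miR-125b-5p (0.676), against a median of 1.80, so 2 of the 3 names are those of miR-129-5p. For miR-137-3p they were miR-298-5p (0.364), miR-361-5p (0.386) and miR-467a-5p (0.464), against a median of 1.52. For miR-153-3p they were miR-669c-5p (0.818), miR-196a-5p (0.978) and miR-467c-5p (0.995), against a median of 2.20. As an example, miR-669c-5p had 495.78 and 356.76 RPM in E10.5 motoneurons, against 154.32 and 126.07 RPM in GFP-negative cells. These distances describe 7 libraries and share their depth and scaling.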

How the data were processed

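Small RNAs were sequenced from papain-dissociated, fluorescence-sorted cells with the NEBNext small RNA kit on HiSeq instruments, per the labels' protocols. Bowtie2 is named, with no version, per the submitters' processing notes; the sources used here do not give the counter, its strand setting, the build or the annotation. RPM values and the authors' group means make up the E10.5 table that the authors deposited. The deposited E12.5 values, whose header carries no unit, were taken as FPKM computed by the authors, since value × mature length × depth gave whole reads for most rows described here; each library was then rescaled to TPM. Low values of single-row bundles lay within 0.05 of whole reads in 97.3% to 100% of E10.5 cases and in 74.5% to 81.6% of E12.5 cases; 184 of 1908 rows lie in bundles that share reads, and their values are uncertain.

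Because the E10.5 values are RPM, no count test was run: limma 3.58.1 (R 4.3.3; empirical Bayes with trend, two-sided, Benjamini-Hochberg over 492 miRNAs, threshold 0.05) was fitted to log2(RPM + 1) in the 4 E10.5 libraries, for miRNAs with at least 15.2 RPM, 10 reads at the median depth, in 2 libraries. It was tested on simulated data. E12.5 ratios have exact counting intervals (Python 3.11.15, scipy 1.17.1) and no test. All 8 rows are described; the 3 nearest profiles per guide and miRNAs sharing a seed were named by rule, and the miR-124 and miR-218 values, the list members and miR-669c-5p are given for setting. The members and lists were chosen with earlier results of these data known. Scaling, filter, pseudocount, threshold and leave-one-out alternatives were run; summing the miR-129 passenger rows was added after seeing the data.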

Additional observations from a re-analysis of the deposited data

How the results depend on the processing

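At E10.5, 57 miRNAs were higher in motoneurons as reported, against 34 with only all-zero rows removed, 105 with totals without the 5 most abundant miRNAs, 114 with quantile normalization and 27 to 48 with 1 library left out. The count of lower miRNAs was 151, against 100 with quantile normalization and 106 to 125 with 1 library left out. The count of the 8 rows called higher was 1, against 0 with only all-zero rows removed and 0 to 0 with 1 library left out. The log2 fold change of miR-138-5p turned to 0.11 with median of ratios, 0.063 with TMM, 0.20 without the 5 most abundant, 0.59 with quantile normalization and was -0.40 without the first GFP-negative library and 0.26 without the second motoneuron library (it failed the filter without either of the others); that of miR-129-5p turned to -0.0044 with totals without the mesenchymal and muscle lists and ran from -0.16 to 0.41 with 1 library left out. The cause was not tested.

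At E12.5, the count of rows at least 2-fold lower in V2a than V3 was 2, against 0 with a pseudocount of 10, 0 with a mean of at least 10 TPM, 1 at 4-fold, and 3 with median of ratios, TMM or totals without the 5 most abundant, which add miR-129-5p; the count higher in V2a than V3 was 0, against 1 with no pseudocount and 1 on values as deposited. The count higher in motoneurons than V2a was 4, against 2 with a mean of at least 10 TPM and 5 with median of ratios or TMM, which add miR-137-3p. The count higher in motoneurons than V3 was 4, against 1 at 4-fold and 2 without the 5 most abundant miRNAs, where 1 (miR-153-3p) was lower.

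Same-numbered E10.5 libraries share only a number (correlation of deviations 0.26, 2 pairs); with the replicate block, 67 miRNAs were higher and 162 lower, and the rows' counts stayed at 1 and 0. At E10.5 depth, 15.2 RPM is about 10 reads, so changes under 2-fold in these guides could not be resolved.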
